A study of Mus musculus with 2 samples.

Results

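The genes described here encode the molecules of the major histocompatibility complex (MHC) and the machinery that loads them with peptide. They were measured in ALDH-positive and ALDH-negative 4T1 cells, the fractions of a mouse breast cancer line with high and low aldehyde dehydrogenase activity. The members were every array gene whose name begins with H2-, the mouse prefix for MHC genes, and 20 further genes named individually. They came to 61 genes of 22130 named genes on the array, read by 82 probes. Of these 61 genes, 29 encode class I heavy chains or sequences like them, and 10 encode class II chains. The others were the class II chaperone Cd74, 11 genes grouped as peptide supply to class I, 2 transactivators, 4 co-signal ligands and 2 NKG2D ligands. The peptide supply group includes B2m, the class I light chain, beside the genes that make and load peptide. H2-Ke2 and H2-Ke6 carry the prefix because of where they lie, but encode no MHC molecule.

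The 4T1 line was derived from a mammary carcinoma of a BALB/c mouse. The cultures were untreated and were separated with the ALDEFLUOR kit, whose substrate turns fluorescent in cells with aldehyde dehydrogenase activity. The labels name the ALDH-negative fraction "anti cancer stem cell" and the ALDH-positive fraction "cancer stem cell", both of strain BALB/C. The total RNA of each fraction was read on 1 one-colour Agilent array, so the series holds 2 arrays, and no value given here has a replicate check or a p-value. The 2 fractions were gated out of 1 cell line with no host tissue, and the spread between separate cultures or sorts is unknown.

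MHC class I molecules sit on nearly all nucleated cells and show peptides from inside the cell to CD8+ T cells. A class I heavy chain is held together by the light chain beta-2 microglobulin and a peptide, which proteasomes cut and the TAP transporter carries into the endoplasmic reticulum. MHC class II molecules show peptides from endosomes to CD4+ T cells, and are made mainly by dendritic cells, macrophages and B cells, although interferon gamma can induce them elsewhere. Nlrc5 switches on class I genes and Ciita switches on class II genes, both through DNA-bound factors on a shared set of promoter elements. The mouse MHC lies on chromosome 17, where the classical class I genes are followed by the Q, T and M regions of related non-classical genes.

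Class I promoters are known for a kappa B site and, nearer the start, an X2 box read by CREB/ATF factors and a CCAAT box read by NF-Y. The 200 bases before the start of 6 members are shown because they let the class I genes be set beside the light chain and a class II gene. They come from RefSeq's annotation of GRCm38.p6, are written 5′ to 3′ on the gene's own strand, and carry in capitals the motif letters that were searched. The letters were GGGATTCCC for the kappa B core, TTTCNNTTT for the core of the interferon-stimulated response element, TGACG for the X2 core and CCAAT for the CCAAT box, each on both strands, so that a motif on the other strand appears as its reverse complement. In H2-Aa the X2 core stands on both strands and the matches overlap. H2-K1 has 2 start entries, of which 1 is shown.
H2-K1 promoter, chr17:34000334-34000533, minus strand: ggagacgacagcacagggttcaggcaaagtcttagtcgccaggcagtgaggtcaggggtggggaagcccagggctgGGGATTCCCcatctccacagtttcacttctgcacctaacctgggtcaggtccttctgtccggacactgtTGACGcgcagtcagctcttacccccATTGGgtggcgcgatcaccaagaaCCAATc
H2-D1 promoter, chr17:35262894-35263093, plus strand: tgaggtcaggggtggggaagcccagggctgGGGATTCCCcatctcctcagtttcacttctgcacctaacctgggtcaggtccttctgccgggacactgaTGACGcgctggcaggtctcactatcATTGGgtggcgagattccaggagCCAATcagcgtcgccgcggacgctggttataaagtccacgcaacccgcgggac
H2-Q4 promoter, chr17:35379417-35379616, plus strand: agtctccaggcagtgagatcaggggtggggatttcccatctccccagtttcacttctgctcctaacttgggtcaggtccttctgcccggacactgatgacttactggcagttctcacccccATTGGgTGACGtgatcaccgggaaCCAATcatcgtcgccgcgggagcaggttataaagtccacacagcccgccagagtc
H2-Q6 promoter, chr17:35424650-35424849, plus strand: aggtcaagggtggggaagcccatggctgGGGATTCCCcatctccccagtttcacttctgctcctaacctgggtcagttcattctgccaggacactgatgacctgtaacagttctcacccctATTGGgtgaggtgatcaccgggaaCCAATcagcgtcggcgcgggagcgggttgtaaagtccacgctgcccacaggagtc
B2m promoter, chr2:122147487-122147686, plus strand: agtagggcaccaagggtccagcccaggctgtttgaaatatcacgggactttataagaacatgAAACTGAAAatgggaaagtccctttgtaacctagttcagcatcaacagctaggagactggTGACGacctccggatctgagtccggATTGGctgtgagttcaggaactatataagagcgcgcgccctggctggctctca
H2-Aa promoter, chr17:34287824-34288023, minus strand: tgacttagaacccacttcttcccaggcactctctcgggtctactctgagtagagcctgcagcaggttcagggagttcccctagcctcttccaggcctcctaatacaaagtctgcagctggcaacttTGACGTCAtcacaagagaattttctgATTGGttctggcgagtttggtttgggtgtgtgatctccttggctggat

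Of the 61 members, 44 had at least 1 promoter entry in the RefSeq table, 50 entries in all. The kappa B core stood in 70 of 32851 promoters (0.213%) and in 4 of 20 class I genes with an entry, H2-D1, H2-K1, H2-Q6 and H2-Q7. It stood in 0 of the 8 class II genes and 0 of the 9 peptide supply genes. The X2 core stood in 15.7% of all promoters and in 8 of 20 class I genes, in 1 of 8 class II genes, H2-Aa, and in 4 of 9 peptide supply genes, B2m, Psmb9, Psme2 and Tap1. In H2-K1, H2-D1 and H2-Q7 these letters lie before the inverted CCAAT box. In H2-Q4 they lie after it, nearer the start, and the letters that stand before it there are not TGACG. The CCAAT box stood in 29.3% of all promoters, in 17 of 20 class I genes and in 8 of 8 class II genes, and in 3 of 9 peptide supply genes and 3 of 7 other members. The interferon-stimulated core stood in 7.21% of promoters and in 2 of 20 class I genes, H2-T23 and H2-T3, in 1 of 8 class II genes, H2-DMa, in 1 of 9 peptide supply genes, B2m, and in 3 of 7 other members, Cd274, Pdcd1lg2 and Raet1e. A match is a stretch of letters and not a bound site, and a window with none shows only that these letters are not in it. RefSeq builds on the C57BL/6J genome, and BALB/c alleles were not compared.

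The signals were intensities after quantile normalization, which gives both arrays the same distribution of signals. A gene counted as measured where a probe of it was well above background on at least 1 array, and the brightest such probe stood for the gene. Of the 61 members, 42 were measured, against 63.2% of all genes, and 41 of these 42 on both arrays. The scanner error of a log2 ratio, the error that the scanner software assigns to both signals, was 0.20 for bright probes and larger for dim ones. It covers the reading of an array and not the spread between cultures. A gene was selected as higher where its Z-score was at least 2.0 and its ratio of ALDH-positive over ALDH-negative at least 1.5, and as lower where they were at most -2.0 and 0.75. The Z-score set a probe's log2 ratio against those of the 250 probes on either side of it in mean signal.

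None of the 42 measured members was selected as higher (0, against 1.34% of all 13988 measured genes), and 1 was selected as lower, H2-Q4 (against 2.05%). With a shift to the 75th percentile in place of quantile normalization 3 members were selected as lower, Cd80 and H2-M9 with H2-Q4. At 1 of 42 genes selected, the members lay near the background of all genes. The log2 ratio was above 0 for 29 of 42 members, against 60.6% of all measured genes. It was above 0 by more than the scanner error for 9 members (H2-K1, H2-T9, H2-T10, H2-Ab1, H2-DMa, Erap1, Psmb9, Nlrc5 and Cd274), against 20.9% of all measured genes. It was below 0 by more than the error for 7 members (H2-Q4, H2-T24, H2-M9, H2-M11, H2-Bl, Cd80 and Ulbp1), against 12.1%. The median log2 ratio was 0.07 over the members and 0.05 over all measured genes. The array as a whole was brighter for ALDH-positive cells before normalization, by a median log2 ratio of 0.49 over measured probes. On that unnormalized scale the signal of 4 measured members was still lower in ALDH-positive cells, H2-Q4, Cd80, H2-M9 and H2-T24.

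**Figure D1:**
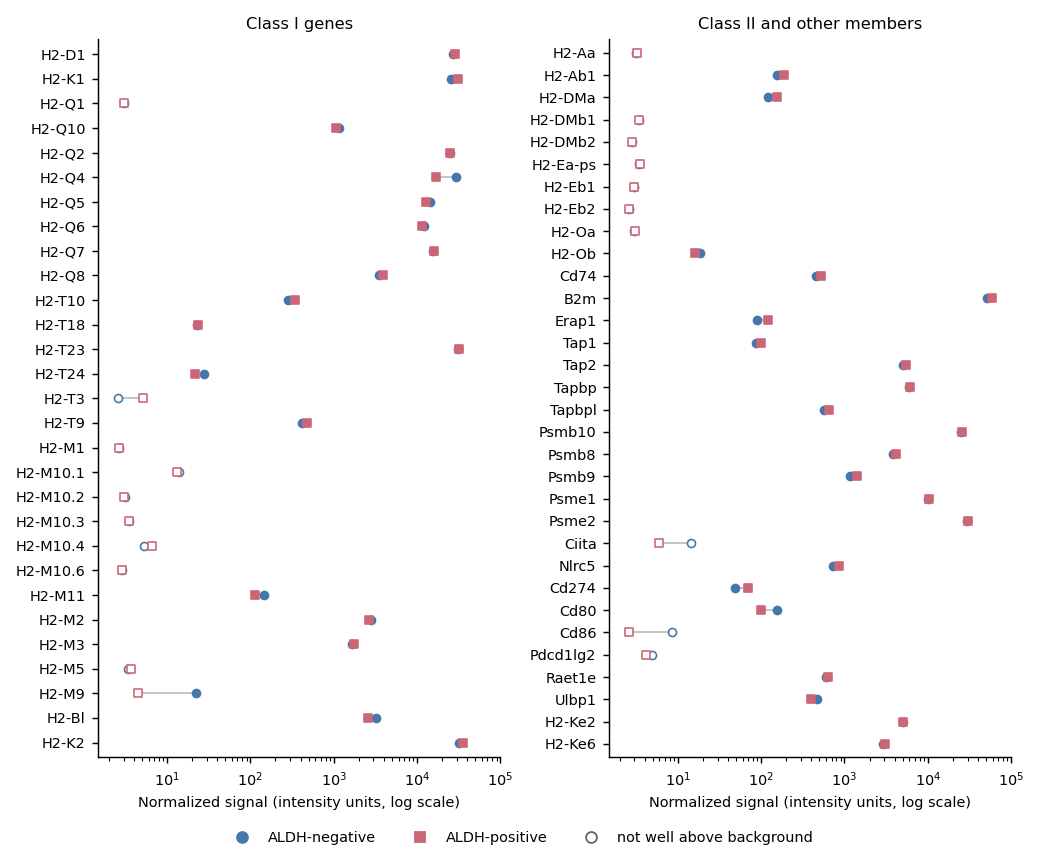
Normalized signal (intensity units, log axis) of each member's probe on the ALDH-negative array (blue circles) and the ALDH-positive array (red squares), with open symbols where the probe was not well above background. Of 29 class I genes 20 have a filled symbol and of 10 class II chains 3, and the widest gap between filled symbols is that of H2-Q4. Probes differ in brightness, so heights are compared within a row only.

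Class I and class II genes differed in how many could be measured. Class I had 20 of 29 genes measured and the class II chains 3 of 10, against 63.2% of all genes. Whether the probes match the BALB/c alleles was not examined, so a probe at background does not show that its gene is not expressed. All 11 peptide supply genes were measured, on both arrays. The log2 ratios of class I spread to both sides of 0, with 10 above, 10 below and a median of 0.00. Those of Cd74 and the 3 class II chains had 3 above 0 and 1 below, with a median of 0.22. Those of the supply genes were above 0 for 11 of 11, with a median of 0.15. Over all measured genes 60.6% were above 0 and the median was 0.05. Of the 11 supply genes, 9 lay within the scanner error and 2 above it, against 20.9% of all measured genes above it. Psmb10 and Psme2 changed sign under other settings. The class II median rests on 4 genes. No test of the difference between the groups was possible with 1 array per population.

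**Figure D2:**
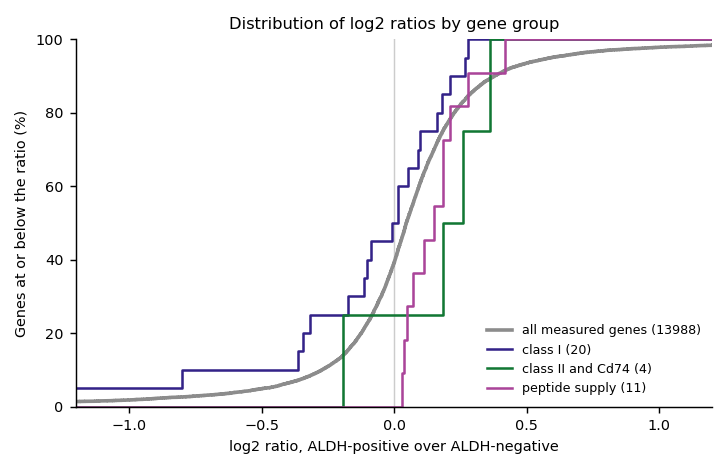
Share of genes (%, y axis) at or below a given log2 ratio of ALDH-positive over ALDH-negative (x axis) for all 13988 measured genes, class I (20), class II with Cd74 (4) and peptide supply (11). The class I curve lies to the left of the curve of all genes through most of its range, and the supply curve starts to the right of 0.

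H2-K1 and H2-D1 encode the classical class I heavy chains K and D, which present peptides to CD8+ T cells. The H2-K1 probe read 25715 on the ALDH-negative array and 30967 on the ALDH-positive one, a log2 ratio of 0.27 where the scanner error was 0.20. In every pair of signals given for a probe the ALDH-negative one comes first. A second H2-K1 probe read 15621 and 16358, a log2 ratio of 0.07. The H2-D1 probe read 26816 and 28665, a log2 ratio of 0.10. Both genes were bright on both arrays, and neither met the selection. The third classical gene of BALB/c, H2-L, had 0 probes under its name. H2-K2, a class I sequence next to H2-K1 that the annotation lists as non-coding, read 32148 and 35921, a log2 ratio of 0.16, and 0.03 at its second probe.

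The Q region follows H2-D1 along chromosome 17 and encodes non-classical chains. H2-Q4 read 29659 and 17014, a ratio of 0.574 and a log2 ratio of -0.80 (scanner error 0.20). Its Z-score was -4.28. It lay far to the lower side of the probes of similar brightness, and no other Q gene met the selection. Before normalization the same spot read 24529 and 20560, so the ALDH-positive array was dimmer at this spot although it was brighter as a whole. The gene had 1 probe, printed once, so no second probe checks the value. Against the spread of all probes in place of those of similar brightness its Z-score was -1.29 and it was not selected.

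The 1 probe behind this value maps to chr17:35521294-35521353 on the plus strand of NCBI37, and its first 30 of 60 bases are shown because the only selected member rests on them.
H2-Q4 probe, first 30 bases: attatggatctgcaaccctataggtggaac
Aligned without gaps, the class I probe of another gene closest to it, one for H2-M10.4, was identical at 26 of 60 positions. The comparison was between probes and not with the RNAs of other genes, so what else this probe catches was not tested. The H2-Q4 probe was not printed in the last eighth of the array's rows or columns, where 3.77% of measured probes were selected as higher and 4.35% as lower, against 0.707% and 2.40% elsewhere. Of the 183 measured probes within 16 rows and 8 columns of it, 7 were selected as lower and 0 as higher, and their median log2 ratio was 0.00.

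The other Q genes moved little between the arrays. H2-Q7, one of the genes for the Qa-2 antigen, read 15645 and 16210, a log2 ratio of 0.05. H2-Q6, the closely related second Qa-2 gene, read 12213 and 11495, a log2 ratio of -0.09. H2-Q2 read 24922 and 24791, a log2 ratio of -0.01, and -0.04 at its second probe. By mapped position that second probe (chr17:35460007) lies nearer to the H2-Q1 probe (chr17:35461859) than to the first H2-Q2 probe (chr17:35482113). H2-Q7, H2-Q6 and H2-Q2 all lay inside the scanner error of 0.20. So did H2-Q5 with 14388 and 12751 (log2 ratio -0.17) and H2-Q8 with 3482 and 3943 (log2 ratio 0.18). H2-Q10, a class I protein that the liver secretes, also did, with 1147 and 1061 (log2 ratio -0.11). The second H2-Q10 probe was not well above background on either array. H2-Q1 was not well above background on either array. Of the 7 measured Q genes, 2 had a log2 ratio above 0 and 5 below, and the median was -0.09.

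Class I genes are close in sequence, so a probe for 1 gene can catch RNA of another. Of the pairs of class I probes of different genes, 3 with the most identical bases are shown as stretches of 30 bases aligned without gaps, with capitals at the bases that differ. For H2-K2, H2-Q2 and H2-K1 it is the second, dimmer probe of the gene.
H2-K2 probe: actAagtgacagacAatgtCttcaCACAtc
H2-Q7 probe: actGagtgacagacGatgtGttcaTGTCtc
H2-Q2 probe: aagGcacatgtgacTcatcacccCAgatct
H2-Q10 probe: aagAcacatgtgacCcatcacccAGgatct
H2-T23 probe: atCAtcCTtggagctgtggtggcttttgtg
H2-K1 probe: atAGtcACtggagctgtggtggcttttgtg
The probes of H2-K2 and H2-Q7 were identical at 49 of 57 aligned bases, those of H2-Q2 and H2-Q10 at 45 of 50, and those of H2-T23 and H2-K1 at 39 of 54. A probe of H2-Q10 and one of H2-T3, not shown, also shared 39 bases, over 59. Over shorter overlaps the share was higher for other pairs, at 27 of 31 bases for H2-Q6 and H2-T23 and 31 of 36 for the brighter H2-K2 probe and H2-Q7. How much signal crossed between them was not tested. Where the array cannot separate the RNAs, a value belongs to the probe and the genes it catches.

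The T region holds H2-T23, which encodes Qa-1, the chain that shows leader peptides of other class I molecules to NK cells. H2-T23 read 31185 and 31512, a log2 ratio of 0.02, well inside the error. H2-T10, whose product is a ligand of gamma delta T cells and carries no peptide, read 280 and 339, a log2 ratio of 0.28 (error 0.21). H2-T9, a sequence like it, read 414 and 479, a log2 ratio of 0.21. Both were past their scanner error and short of the selection. H2-T24 read 27.7 and 21.8, a log2 ratio of -0.34 (error 0.30). Its second probe, at 20.6 and 8.87 (error 0.63), was not well above background in ALDH-positive cells and at least 1.62-fold lower there. Such bounds, here and below, hold for the background-subtracted signals and leave out the scanner error. H2-T18 (log2 ratio 0.01) was close to background on both arrays. H2-T3, a gene for the thymus leukemia antigen, was not well above background with either of its probes. The signals of 1 of them, 2.57 and 5.07, met both limits of the selection but were not counted, since neither was above background.

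The M region was the least detected of the class I regions, with 4 of 11 genes measured. H2-M3 presents peptides that begin with formylated methionine, as bacterial and mitochondrial ones do. It read 1636 and 1740, a log2 ratio of 0.09. H2-M2 read 2831 and 2635, a log2 ratio of -0.10, and H2-M11 read 147 and 115, a log2 ratio of -0.36 (error 0.21). Of these only H2-M11 was past its scanner error. The second H2-M2 probe was not well above background on either array. H2-M9 read 22.2 on the ALDH-negative array and was not well above background on the other, at least 1.75-fold lower, with a Z-score of -1.95 just short of the limit. The bound holds for the background-subtracted signals, and the log2 ratio of H2-M9 was -0.33 with the normexp background correction and -0.32 with none, both smaller than the bound. It was printed in the last eighth of the array, and its second probe was not well above background. H2-M1, H2-M5 and the H2-M10 genes on the array, H2-M10.1, H2-M10.2, H2-M10.3, H2-M10.4 and H2-M10.6, were not well above background. H2-Bl, a class I sequence without a mapped position, read 3206 and 2573, a log2 ratio of -0.32.

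**Figure D3:**
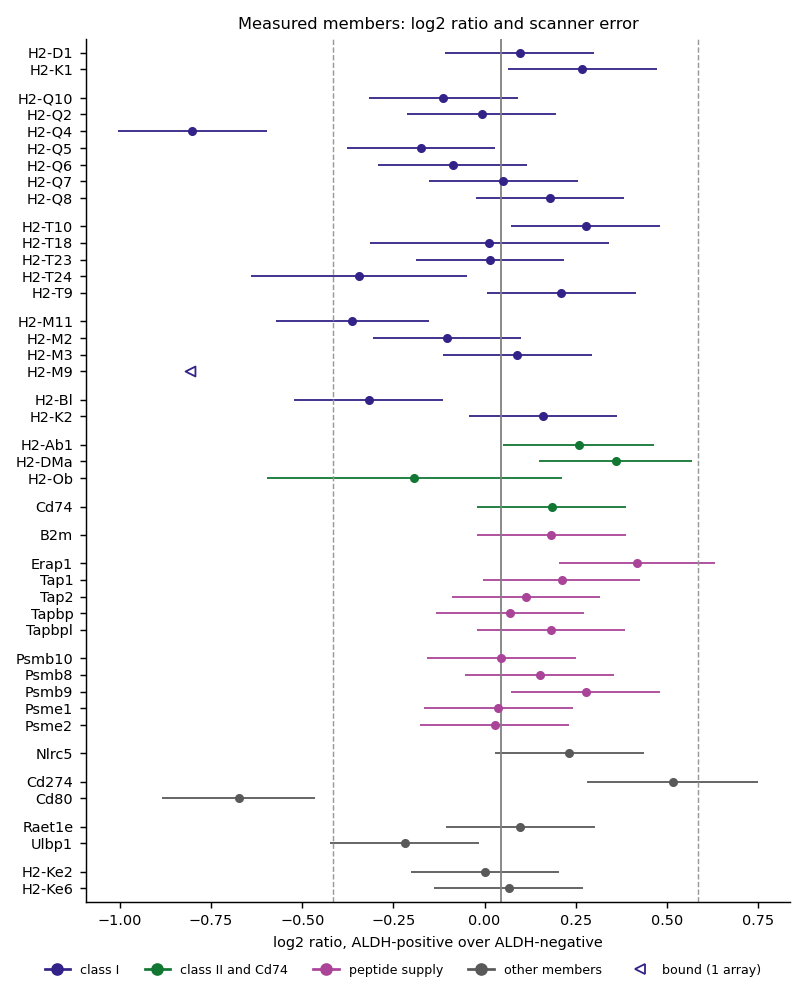
Log2 ratio of ALDH-positive over ALDH-negative signal (x axis) of the 42 measured members, with the scanner error as a bar, grouped by role. The solid vertical line is the median of all measured genes (0.05), the dashed lines are the ratio limits of 0.75 and 1.5, and the triangle is the bound of at least 1.75-fold lower for H2-M9. H2-Q4 at -0.80, Cd80 at -0.67 and the H2-M9 triangle lie past the lower line. All 11 supply genes lie right of 0, 9 of them within the scanner error.

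Class II molecules are dimers of an alpha and a beta chain. H2-Ab1, the beta chain of I-A, read 155 and 186, a log2 ratio of 0.26 (error 0.21), and its second probe read 136 and 186, a log2 ratio of 0.45. The alpha chain of the same molecule, H2-Aa, was not well above background, at 3.18 and 3.20. The 2 chains of I-A were thus not both detected, on either array. H2-DMa, 1 chain of the exchange factor that puts peptides onto class II, read 122 and 157, a log2 ratio of 0.36 (error 0.21), while its partner chains H2-DMb1 and H2-DMb2 were not well above background. H2-Ob, the beta chain of the DM inhibitor, read 18.4 and 16.1, a log2 ratio of -0.19 within its error of 0.41, and its alpha chain H2-Oa was not well above background. The I-E chains H2-Eb1 and H2-Eb2 were below that level too, as was H2-Ea-ps. The name of H2-Ea-ps marks a pseudogene, but whether it is one in BALB/c was not examined.

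Cd74 encodes the invariant chain, which fills the class II groove until a peptide replaces it. It read 454 and 516, a log2 ratio of 0.18 within the error. Ciita, the transactivator of class II, was not well above background on either array, at 14.2 and 5.98. Nlrc5, the transactivator of class I, read 736 and 865, a log2 ratio of 0.23 (error 0.20), and 0.32 with an error of 0.25 at its second probe. Neither probe of Nlrc5 met the selection, and the first was printed in the last eighth of the array.

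Antigen-presenting cells are the main makers of class II, so their markers are given beside it. Of 15 marker genes of antigen-presenting cells, 7 were measured. The leukocyte gene Ptprc, the dendritic cell genes Itgax, Xcr1 and Clec9a, the B cell gene Ms4a1 and the macrophage genes Adgre1 and Lyz2 were not well above background on either array. The summed signal of the 7 measured markers was 9542 and 5837, a sum over probes of unequal brightness, most of it from 1 Itgam probe. That probe, at 7301 and 3795, was selected as lower with a log2 ratio of -0.94. It was the only 1 of the 7 selected, against 2.05% of all measured genes selected as lower. The other measured Itgam probes were far dimmer. A second read 21.8 and 28.4, a log2 ratio of 0.38, and the last read 24.3 and 15.3, at least 1.59-fold lower. Csf1r (log2 ratio -0.34), Cd79a (-0.32) and Batf3 (-0.18) were below 0, and Flt3 was at least 1.83-fold lower. Cd14 (0.27) and Zbtb46 (0.39) were above 0. Of 4 T and NK cell markers, Cd3e read 917 and 664 and Cd4 read 1846 and 1630, while Cd8a and Ncr1 were not well above background. A second Cd4 probe, at 11.6 and 9.53, was not well above background on either array. The part of these markers in the class II values was not tested. Both fractions were gated out of a cultured cell line with no host tissue. In bulk RNA, fewer cells with a transcript and less of it per cell cannot be told apart.

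The markers of an epithelial line, Krt8, Krt18, Cdh1, Epcam and Cldn7, were all measured, on both arrays. Their log2 ratios were 0.18, 0.16, 0.17, 0.40 and 0.85. Only Cldn7 was selected, as higher, 1 of 5 genes against 1.34% of all measured genes. Krt8, Krt18 and Cdh1 lay within the scanner error, and a second Krt8 probe had a log2 ratio of 0.04. The second Cldn7 probe was not well above background. The Krt18 and Epcam probes were printed in the last eighth of the array.

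B2m encodes the class I light chain. It read 51634 and 58601, a log2 ratio of 0.18 within the scanner error. Tap1 and Tap2 form the transporter that brings peptides into the endoplasmic reticulum. Tap1 read 86.4 and 100, a log2 ratio of 0.21 (error 0.22), and Tap2 read 5110 and 5529, a log2 ratio of 0.11. Tapbp, or tapasin, holds the empty class I molecule at the transporter and read 5904 and 6196, a log2 ratio of 0.07. Its relative Tapbpl, which edits peptides away from the transporter, read 574 and 651, a log2 ratio of 0.18. Erap1, the aminopeptidase that trims peptides to fit, read 90.0 and 120, a log2 ratio of 0.42 (error 0.21), at a spot in the last eighth of the array. Of these genes only Erap1 was past its scanner error, and none was selected.

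The immunoproteasome replaces 3 cutting subunits of the proteasome with Psmb8, Psmb9 and Psmb10. Psmb8 read 3790 and 4208, a log2 ratio of 0.15, Psmb9 read 1178 and 1427, a log2 ratio of 0.28, and Psmb10 read 25029 and 25846, a log2 ratio of 0.05. Psmb9 was past its error of 0.20 and the others were within it. Psme1 and Psme2 form the cap that opens the proteasome. Psme1 read 10132 and 10404, a log2 ratio of 0.04, and Psme2 read 29746 and 30329, a log2 ratio of 0.03, with -0.05 and -0.20 at its other probes. The second probe of Psmb9 was not well above background.

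Psmb9, Tap1, Psmb8 and Tap2 lie side by side on chromosome 17 in RefSeq's order of coding genes, with the class II genes H2-DMb1 before them and H2-Ob, H2-Ab1, H2-Aa, H2-Eb1 and H2-Eb2 after them. On these arrays the 4 genes in the middle were measured on both arrays, with log2 ratios of 0.11 to 0.28, as were H2-Ob and H2-Ab1, whereas H2-DMb1, H2-Aa, H2-Eb1 and H2-Eb2 were not well above background.

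Probes of 5 members were printed more than once, which gives the spread between spots of 1 array. The 10 spots of H2-K1 ranged from 23836 to 27245 (median 26100) on the ALDH-negative array and from 29465 to 32028 (median 31059) on the ALDH-positive array, and the 2 ranges did not overlap. The 2 spots of B2m read 51572 and 51697 on the first array and 57777 and 59436 on the second, also without overlap. The differences of 0.27 and 0.18 (log2) were larger than the spot SD of a difference, 0.07 for H2-K1 and 0.03 for B2m. The spots of Tap1 (9 and 10 spots), Psme1 and H2-M2 (10 and 10 spots each) overlapped between the arrays. For Tap1 they ran from 76.2 to 92.9 (median 89.9) and from 88.5 to 109.7 (median 100), for Psme1 from 9833 to 10494 and from 10186 to 10608, and for H2-M2 from 2686 to 3047 and from 2507 to 2761. Their differences of 0.21, 0.04 and -0.10 were also larger in size than the spot SD of a difference, 0.15, 0.03 and 0.08. Spots of 1 array share the RNA, the labelling and the hybridization, so they are no replicates of a population.

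**Figure D4:**
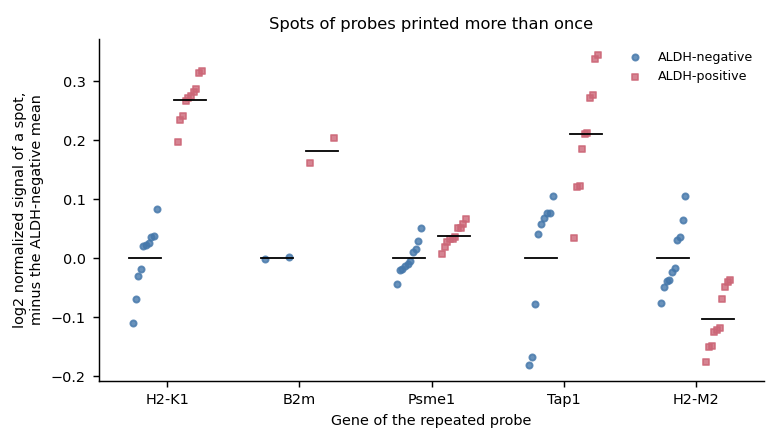
Log2 normalized signal of each spot of the 5 repeated member probes, minus the ALDH-negative mean of that probe (y axis), for ALDH-negative (blue circles) and ALDH-positive (red squares) arrays, with the mean as a line. The spots of H2-K1 and B2m separate between the arrays and those of Psme1, Tap1 and H2-M2 overlap.

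Co-signal ligands tell a T cell whether to act on the peptide it sees. Cd274 encodes PD-L1, which restrains T cells, and read 48.6 and 69.6, a log2 ratio of 0.52 (error 0.23, Z-score 1.23). Cd80 encodes a ligand of CD28 and CTLA-4, and read 157 and 98.6, a log2 ratio of -0.67 (error 0.21) whose Z-score of -1.96 fell just short of the limit. Both ratios were past the scanner error and neither gene was selected. With other background corrections the log2 ratio of Cd274 was as low as 0.23 and that of Cd80 was -0.41. Cd80 was printed in the last eighth of the array, and its second probe was not well above background. Cd86, the other CD28 ligand, and Pdcd1lg2, which encodes PD-L2, were not well above background.

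NKG2D ligands mark stressed cells for NK cells. Raet1e read 595 and 637, a log2 ratio of 0.10 within the error. For Ulbp1 the brighter probe read 465 and 400, a log2 ratio of -0.22, and the other read 117 and 137, a log2 ratio of 0.22, so the 2 probes gave opposite directions. Of the 8 members with several measured probes, Ulbp1 and Psme2 were the 2 with probes of both signs. H2-Ke2, listed by RefSeq as Pfdn6, a prefoldin subunit that helps fold new proteins, read 5067 and 5072, a log2 ratio of 0.00. H2-Ke6, an enzyme of steroid and fatty acid metabolism, read 2898 and 3034, a log2 ratio of 0.07.

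Of 56 further genes of antigen presentation in 8 lists, 50 were measured, with 0 selected as higher and 0 as lower, against 1.34% and 2.05% of all measured genes. Their log2 ratios were above 0 for 38 of 50, against 60.6%. They were past the scanner error above 0 for 14 and below 0 for 0, against 20.9% and 12.1%, and the median was 0.08, against 0.05. In the interferon gamma list, 9 of 10 measured genes were above 0, 6 of them by more than the error, against the same 60.6% and 20.9%, with a median of 0.23. Irf9 (log2 ratio 0.47) and Stat2 (0.45), partners in the interferon-activated transcription factor, were the farthest from 0. Ifngr1 (-0.05) and Ifngr2 (0.01), the receptor chains, were within the error.

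The factors that bind the shared promoter elements of MHC genes had 7 of 7 genes measured, with a median of 0.15. Nfya, a subunit of the CCAAT-binding factor NF-Y, had a log2 ratio of 0.50 and Rfxank, a subunit of the X box factor RFX, 0.41. The Nfya probe was printed in the last eighth of the array. Rfx5, the DNA-binding RFX subunit, passed the background limit on the ALDH-positive array alone and was at least 1.11-fold higher there. Its scanner error was 0.74 (log2). Creb1 was at -0.17. None of these met the selection.

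The constitutive proteasome counterparts had a median of 0.05 over 6 genes, with Psme3 (0.42), a nuclear proteasome cap, and Psmb7 (0.14) farthest from 0. The endoplasmic reticulum chaperones had a median of 0.01 over 6 genes, with Uggt1 (0.08) and Pdia3 (-0.08) farthest from 0 and all within the error. The endosomal genes of class II processing had a median of 0.04 over 4 measured of 5, with Ctsb (0.06) and Ctsl (0.04) farthest, and the protease gene Ctss was not well above background. Class I-like genes outside the MHC had a median of 0.12 over 4 measured of 6, led by Mr1 (0.30), which presents vitamin B metabolites, and Procr (0.16). The other NKG2D ligands had a median of 0.01 over 5 measured of 6, with Raet1a (0.17) and H60a (-0.14) farthest. The other co-signal ligands had a median of 0.17 over 8 measured of 9. Lgals9 (0.49), a galectin, and Nectin2 (0.45), a ligand of TIGIT and CD226, were farthest from 0. Both these probes were printed in the last eighth of the array, and the second Nectin2 probe, printed elsewhere, gave 0.21.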

How the data were processed

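Total RNA of 1 ALDH-negative and 1 ALDH-positive 4T1 sample was labelled with Cy3 and read on 1 SurePrint G3 mouse array each. The authors deposited the scanner's spot intensities, already background-corrected by Agilent Feature Extraction (9.5.1.1 in the submitters' processing notes, 10.7.1.1 in the scanner files), and a table of intensities on a linear scale that the authors made by quantile normalization after log2, used as an alternative. Probe positions are those of NCBI37 as the scanner files give them, 5 member probes having none.

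Spots flagged as outliers were left out, repeated spots averaged, signals floored at 1 intensity unit, log2-transformed and quantile-normalized. A probe counted as measured where well above background on at least 1 array. The selection followed the study's limits on Z-score and ratio. The study does not define its Z-score, so a probe's ratio was set against those of the 250 next brighter and the 250 next dimmer probes. A bound divided the bright signal by the larger of the dim signal and the lowest signal well above background. It rests on background-subtracted signals and leaves out the scanner error. Each array had 62976 spots, 48.5% (ALDH-negative) and 49.4% (ALDH-positive) of probes being well above background and 0 saturated. The 2 arrays limit the precision, no test was possible, and a probe at background has only a bound. Probe accessions were matched to RefSeq symbols for 67 of 82 member probes. For the promoter search, longer forms of the kappa B and interferon-stimulated motifs were tried first and matched fewer promoters, the kappa B form missing H2-Q7. The letters were then shortened with those results known.

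All measured members and markers are named and, of each further list, the 2 genes farthest from 0. Rfxank, Creb1, Ifngr1, Ifngr2 and Ctss were named after their values were seen. Some listed genes are not reported here. The members, lists, probe rule and alternatives were chosen with earlier results of these data known. The calculation was tested on simulated data. Python 3.11.15, numpy 2.4.6, pandas 2.3.3, scipy 1.17.1, R 4.3.3 and limma 3.58.1 were used. Unused columns of other samples numbered 0.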

Additional observations from a re-analysis of the deposited data

How the results depend on the processing

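For the selection, 11 alternatives were run. The count of members selected as higher or lower was 1 as reported (H2-Q4). It was 3 with a shift to the 75th percentile (Cd80, H2-M9 and H2-Q4), and 2 with a Z-score against 100 or against 500 probes on either side (H2-M9 and H2-Q4). Against all probes it was 1, but the gene was H2-M9 and H2-Q4 was not selected. The other settings gave H2-Q4 alone. The log2 ratio of H2-Q4 stayed between -0.80 and -0.72 over 7 settings. The medians stayed within -0.01 to 0.02 for class I, 0.19 to 0.27 for class II and Cd74, 0.12 to 0.18 for peptide supply and 0.06 to 0.12 for the further lists. Of 288 single-gene values under alternatives, 280 lay within the scanner error of the value reported and 8 moved by more, those of Cd274, Cd80 and H2-M9 under other background corrections and of H2-T24 and Ulbp1 with the median over probes. H2-Q2, H2-T18, Psmb10 and Psme2 changed sign, each by less than its error. Over all genes, 188 were selected as higher and 287 as lower, against 101 and 245 with normexp, 91 and 247 without background correction and 210 and 184 against all probes. The causes were not tested. No paired analysis was possible because each population had 1 array. Dim probes limit what can be said of class II, H2-M9 and H2-T24.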
